A study of Canis lupus familiaris with 17 samples.

Results

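Eosinophils and basophils were examined as one gated population of canine blood leukocytes, drawn from droplet-based single-cell RNA sequencing of 17 dogs. A cell barcode entered the gate when it carried at least 1 unique molecular identifier (UMI, one counted transcript molecule) of at least 2 of the 3 genes IL5RA (ENSCAFG00000005991), DACH1 (ENSCAFG00000004978) and CA8 (ENSCAFG00000007141), no UMI of CD3E, MS4A1 or CAMP, and at most 3 UMIs of DLA-DRA. The excluded genes mark T cells, B cells, granule-bearing immature neutrophils and antigen-presenting cells, respectively. Of 93013 deposited barcodes, 84345 passed the limits of 200 to 4500 genes, 500 to 20000 UMIs and less than 10% mitochondrial UMIs, and 1328 of these (1.57%) met the gate. Within the gate, PADI3 (ENSCAFG00000015797) or TGM2 (ENSCAFG00000008869) was taken to mark eosinophils, and TGFA (ENSCAFG00000003366) or ANKRD33B (ENSCAFG00000009997) basophils. The gate and the classes used the UMIs of these genes in these same cells, so the levels of all genes in gated cells against other cells, and in one class against the other, are given as descriptions without a test. The label was only partly borne out by the data. CCR3, the eotaxin receptor of eosinophils, was higher in gated cells than in other cells, whereas the granule protein genes EPX and PRG3 had 0 UMIs in the 1328 cells and the classical basophil genes other than FCER1A were at or near 0 in nearly all of them. The cells are therefore called gated cells below, and the classes are called by their genes.

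Eosinophils are bone marrow-derived granulocytes that depend on interleukin-5, bind eotaxins through CCR3, adhere through the integrin VLA-4 and make leukotrienes through 5-lipoxygenase. Basophils are the rarest granulocytes of blood, and share with eosinophils the common beta chain of the IL-3, IL-5 and GM-CSF receptors and the transcription factor GATA1. They are classically told apart by the high-affinity IgE receptor (FCER1A and MS4A2), histidine decarboxylase (HDC), carboxypeptidase A3 (CPA3) and GATA2. Both cell types hold little RNA, and granulocytes largely pass below the mononuclear layer in a density gradient.

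The study compared circulating leukocytes of 7 healthy dogs with those of 10 dogs with osteosarcoma (OS), a malignant bone tumor that arises spontaneously in dogs. All animals were labelled wild type, and the sample was labelled PBMC with disease state healthy or osteosarcoma. Dogs of both groups were client-owned pets, so breed and age were not fixed as in a colony, and the OS dogs had received no treatment. The paper cautions that a difference in age between the groups may have affected its comparison of them. Leukocytes came from EDTA blood by Ficoll Paque centrifugation and red cell lysis, and 1 library per dog was made with 3′ chemistry. Shares of gated cells thus refer to cells that stayed in this layer, not to whole blood.

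Libraries held between 1332 and 7748 deposited barcodes and between 7740230 and 56510134 UMIs. Any pair of libraries had 0 to 22 barcode sequences in common. In 17 of 17 dogs the gated cells had a lower median UMI count, fewer genes and a lower mitochondrial percentage than the other cells of the same dog. Their median UMIs per dog lay between 902 and 3248, against 3706 to 6992.5 in the other cells. Certain libraries stood apart and are set out beside the results that rest on them: healthy dog 2 and OS dog 7 supplied 692 of the 1328 gated cells (52.1%), and 15 of the 41 gated cells of healthy dog 7 also carried neutrophil genes.

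All 3 gate genes were detected in 514 gated cells (38.7%). IL5RA with DACH1 was found in 357 cells (26.9%), IL5RA with CA8 in 230 (17.3%) and DACH1 with CA8 in 227 (17.1%). IL5RA, the ligand-binding chain of the interleukin-5 receptor, was thus seen in 82.9% of gated cells, DACH1, a transcriptional regulator, in 82.7% and CA8, a carbonic anhydrase-related protein, in 73.1%. Cells just outside the gate, with exactly 1 of the 3 genes and all other limits met, numbered 1715. Of these, 51.6% had S100A12, a neutrophil calgranulin, 19.8% had TGM2 and 7.00% had CCR3. In the 814 cells just inside, with exactly 2 of the 3 genes, the same percentages were 6.63, 47.4 and 16.95, and in the 514 cells with all 3 genes they were 2.72, 53.9 and 22.4. The step from 1 to 2 gate genes thus went with a drop in S100A12, and left some cells with TGM2 or CCR3 outside. At the DLA-DRA limit, 9 gated cells had 3 UMIs and 2 cells were just outside with 4. In all, 47 barcodes that met the other limits had more than 3. CD3E removed 98 barcodes that otherwise met the 2-gene rule, MS4A1 13 and CAMP 11.

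In healthy dogs, gated cells made up 0.246 to 9.63% of kept barcodes (median 0.796%). In OS dogs they made up 0.145 to 6.15% (median 0.814%). Healthy dog 2 had 319 gated cells among 3313 barcodes, a share of 9.63% with an exact 95% Clopper-Pearson interval from 8.65 to 10.7%. OS dog 7 had 373 among 6063, or 6.15% (5.56 to 6.79%). In the other 15 dogs the share was at most 1.90% and lay lowest in OS dog 2, with 9 cells (0.145%, interval 0.0662 to 0.275%). The intervals cover counting error only, and the range within each group was far wider than any of them. Shares of OS and healthy dogs overlapped almost wholly, and 5 of 10 OS dogs were above the healthy median. An exact two-sided Wilcoxon rank-sum test over 7 and 10 dogs gave p = 0.887 (0.939 adjusted over 6 shares, smallest p this design allows 0.0001028). The study asked whether OS alters the make-up of circulating leukocytes, and for gated cells no difference was detectable in these dogs.

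**Figure D1:**
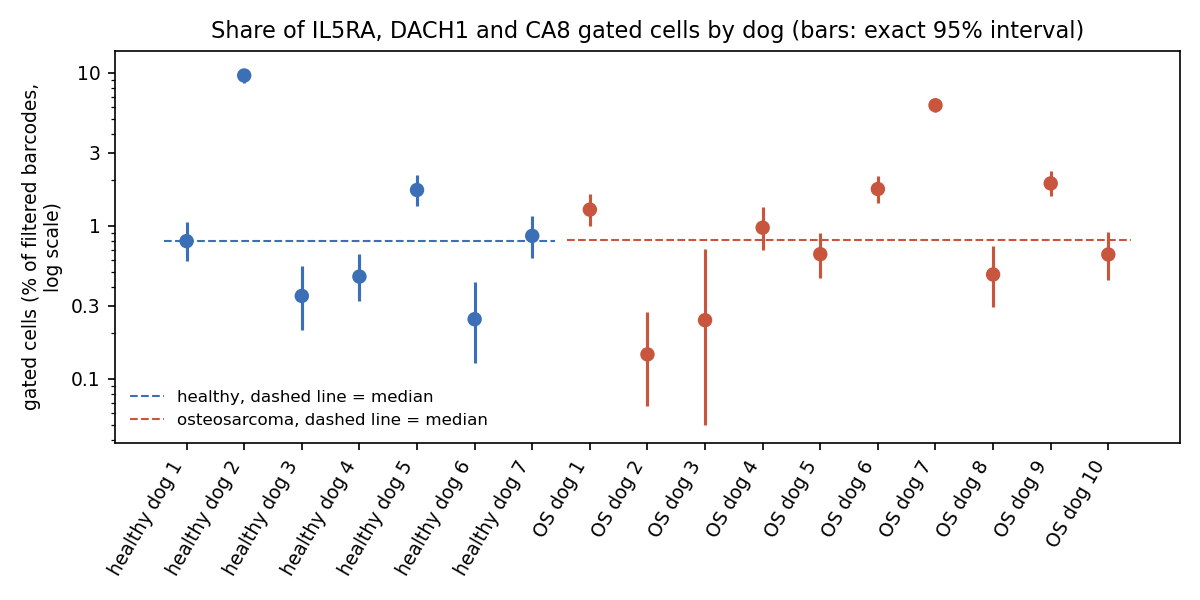
Share of kept barcodes in the gate for each of 7 healthy and 10 OS dogs. The vertical axis is the percentage of kept barcodes, bars on points are exact 95% intervals for counting error and short lines are group medians. Healthy dog 2 (9.63%) and OS dog 7 (6.15%) lie far above the other dogs, which lie between 0.145 and 1.90%.

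The 2 pairs of class genes did not divide the gated cells into 2 populations. PADI3, a peptidylarginine deiminase, was detected in 87.4% of gated cells and TGM2, a transglutaminase, in 49.9%. TGFA, a ligand of the epidermal growth factor receptor, was detected in 54.4% and ANKRD33B in 33.4%. Cells with genes of both pairs were the majority, 829 (62.4%), whereas 381 (28.7%) had only PADI3 or TGM2, 68 (5.12%) had only TGFA or ANKRD33B and 50 (3.77%) had none of the 4. The share with both pairs went up with the depth of the cell, from 31.7% of 142 cells with under 1000 UMIs to 51.6, 75.1 and 82.8% of 498, 554 and 134 cells in the bins from 1000 to 2000, 2000 to 4000 and 4000 to 20000 UMIs. Median UMIs were 1583 in cells with PADI3 or TGM2 only, 1563 in cells with TGFA or ANKRD33B only, 2352 in cells with both pairs and 1125.5 in cells with neither. TGFA or ANKRD33B was seen in 68.5% of the 1210 cells that had PADI3 or TGM2 and in 57.6% of the 118 cells that lacked them. The direction was not the same at every depth: from 1000 to 2000 UMIs the percentages were 57.6 of 446 and 63.5 of 52 cells, and from 2000 to 4000 UMIs 79.2 of 525 and 69.0 of 29.

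**Figure D2:**
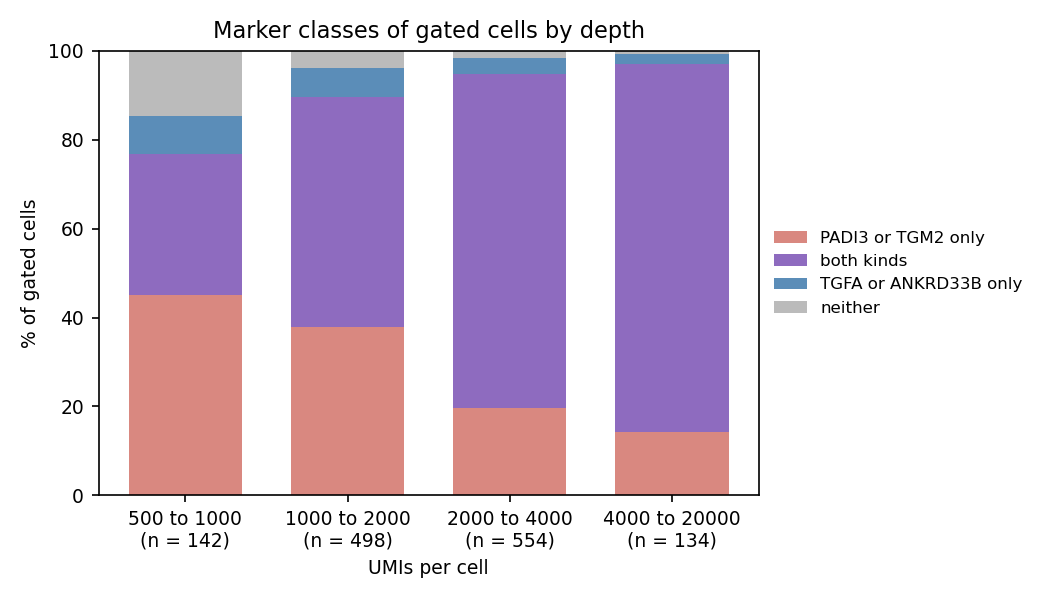
Make-up of the gated cells by depth, as the percentage of cells in each bin of UMIs per cell that had class genes of both pairs, of one pair only or of neither. Cells with both pairs make up 31.7% of the shallowest bin and 82.8% of the deepest, while each class with a single pair becomes smaller.

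No share of a class differed detectably between OS and healthy dogs. Cells with PADI3 or TGM2 only made up a median of 0.199% of barcodes in healthy and 0.214% in OS dogs (exact Wilcoxon rank-sum test, p = 0.536). For TGFA or ANKRD33B only, the medians were 0.0458 and 0.0425% (exact p = 0.939), for both pairs 0.378 and 0.474% (exact p = 0.669) and for neither pair 0.0210 and 0.0553% (exact p = 0.668). Among cells with genes of a single pair, TGFA or ANKRD33B only accounted for 14.3% in 5 healthy and 12.8% in 7 OS dogs at the median (exact p = 0.843, smallest possible p 0.002525). Each adjusted p was 0.939. Depth, which sets how often a class gene is seen, had medians of 1496 UMIs in healthy and 1854 in OS dogs (exact p = 0.417). The class with TGFA or ANKRD33B only held at most 15 cells in any dog, so it was not tested gene by gene between groups.

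Genes that the study lists for basophils but that took no part in the gate or the classes were detected at similar frequencies in the classes with a single pair. DAPK2, a death-associated kinase, was detected in 24.4% of cells with PADI3 or TGM2 only, 30.9% with TGFA or ANKRD33B only, 32.9% with both pairs and 24.0% with neither. HK2, a hexokinase, was found in 20.2, 22.1, 25.2 and 18.0% of these classes in the same order. PRR5L, a partner of the mTORC2 complex, was found in 51.2, 51.5, 65.1 and 42.0%. For each of these genes, the classes with a single pair lay within 7 percentage points of one another, and for HK2 and PRR5L within 2. Summed over cells, DAPK2 was at 223.5 CPM in cells with PADI3 or TGM2 only and 338 CPM in cells with TGFA or ANKRD33B only. SMPD1, the acid sphingomyelinase, was detected in 53.0% of cells with PADI3 or TGM2 only and in 38.2% of cells with TGFA or ANKRD33B only. C30H15orf48, the other eosinophil marker of the study outside the gate and the classes, was in 85.8 and 83.8% of them. GATA1 was seen in 13.9 and 13.2% and CEBPE in 12.3 and 10.3%. CCR3 was seen in 17.6 and 10.3% and ALOX5, the 5-lipoxygenase, in 61.4 and 45.6% of these classes.

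With summed counts, gated cells with any TGFA or ANKRD33B were set beside those with none in the 5 dogs that had at least 25 of each (healthy dogs 2 and 5, OS dogs 6, 7 and 9), a division chosen after seeing the data. Levels are UMIs of a gene scaled to the usual common total of UMIs (CPM), and ratios are log2 of (CPM + 1). Of 3644 genes at 50 CPM or more, 195 (5.35%) were higher and 135 (3.7%) lower in cells with TGFA or ANKRD33B in all 5 dogs, and 4 and 2 of them by more than 2-fold. PADI3 had a median log2 ratio of −0.05, TGM2 of −0.15, DAPK2 of −0.10, HK2 of −0.18 and PRR5L of 0.21. The lowest median ratios by the naming rule were those of NEBL (−6.20), the survival gene BCL2A1 (−6.11), which is high in neutrophils, and ZNF804B (−5.08). The neutrophil markers S100A12 and S100A8 had median ratios of −6.11 and −4.23. The direction of S100A12 was not the same in all 5 dogs. Cells with PADI3 or TGM2 only held 152 of its 152 UMIs in healthy dog 5. They held 51 of 51 in OS dog 6 and 60 of 61 in OS dog 9. In healthy dog 2 they held 0 of 15 and in OS dog 7 6 of 210. Among the highest were NSMAF (1.497), PSMA5, a proteasome subunit (1.48), and RIPK3, a kinase of necroptosis (1.42). No dog had 25 cells of each single-pair class. At 10 cells of each, healthy dog 2 and OS dog 7 could be described, with 12 and 15 cells with TGFA or ANKRD33B only. In both dogs, 319 of 3786 genes (8.43%) were over 2-fold higher and 162 (4.28%) over 2-fold lower in cells with PADI3 or TGM2 only. The genes named by the rule on the higher side had 0 UMIs in the cells with TGFA or ANKRD33B only, with RACK1 as an example. In this class 1 UMI equalled 39.97 or 43.2 CPM, depending on the dog. A count of 0 UMIs there does not show that a gene was absent, and these counts and ratios rest on few UMIs. DAPK2 had a median log2 ratio of −0.30, lower in both dogs, SMPD1 of 0.80 and CCR3 of 0.99, higher in both, while HK2 and PRR5L differed in direction between the dogs.

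Set beside other cell populations of the same libraries, the gate and class genes differed in how far they reached. T cells had at least 2 of CD3E, CD3D and CD3G, and their median depth of 5600 UMIs was above the 2043 of gated cells. IL5RA was detected in 0.279% of T cells, DACH1 in 0.805% and CA8 in 0.251%, far below the gated cells. In neutrophils, defined by at least 3 of S100A12, CD4, SERPINA1, ALDH1A2 and IL1R2 (CD4 is expressed by canine neutrophils), IL5RA was detected in 7.13% and CA8 in 0.708%. DACH1 was detected in 29.5% of cells with granule genes of PMN-MDSCs (polymorphonuclear myeloid-derived suppressor cells: at least 2 of CAMP, LTF, PGLYRP1, MMP8 and TCN1). PADI3 was not particular to the gate. In monocytes, which were deeper than gated cells, it was detected in 73.4%, and in T cells in 3.51%. It was detected in 87.3% of neutrophils at a mean of 1275 CPM and in PMN-MDSC cells at 2133 CPM, against 1507 ± 417 CPM (SD, n = 12 dogs) in gated cells. TGM2, in contrast, was at 591.5 ± 177 CPM in gated cells, 0.667 in neutrophils and 13.4 in PMN-MDSC cells. TGFA lay at 469 ± 147 CPM in gated cells and 125.5 in neutrophils, and ANKRD33B at 222 ± 52.1 in gated cells and 55.6 in B cells.

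Levels in gated cells were computed in the 12 dogs with at least 25 of them (healthy dogs 1, 2, 4, 5 and 7, OS dogs 1, 4, 5, 6, 7, 9 and 10). IL5RA was at 510, 622, 585, 715 and 855 CPM in these healthy dogs and at 955, 596.5, 1182, 605.6, 945, 1578 and 964 CPM in the OS dogs. PADI3 was lowest in OS dog 1 (750.9 CPM), healthy dog 1 (892.9) and healthy dog 2 (1082), and 1329 to 1967 CPM elsewhere. TGM2 was lowest in healthy dog 7 (280.9 CPM), where neutrophil genes were most frequent in the gate, and highest in healthy dog 2 (870.0 CPM). Over all genes, 4220 reached 50 CPM on one side or the other. Of these, 1056 (25%) were higher and 805 (19.1%) lower in gated cells than in all other cells of the same dog in every one of the 12 dogs, 336 and 353 of them by more than 2-fold in each dog, with a median log2 ratio of 0.18 over the 4220. These shares are the background of the counts over gene lists below, where a list member is counted if it reached 50 CPM. The rule used the same contrast, and nothing is read from the counts.

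**Figure D3:**
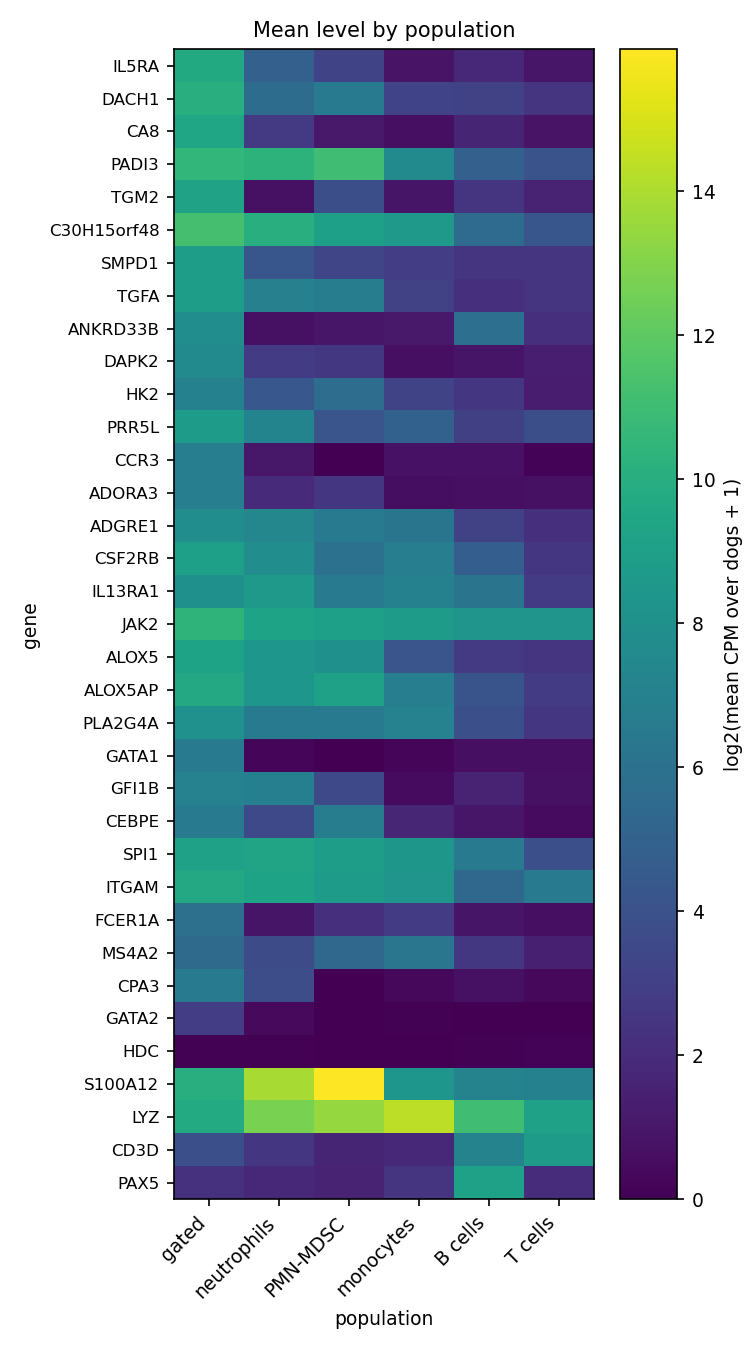
Mean level over dogs of 35 genes in gated cells, neutrophils, PMN-MDSC cells, monocytes, B cells and T cells, as a color scale of log2(CPM + 1). IL5RA, CA8, TGM2, SMPD1, DAPK2, CCR3 and GATA1 are highest in gated cells among these populations, whereas PADI3, ALOX5AP and SPI1 are also high in neutrophils.

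Apart from the 3 gate genes, which the study lists for both cell types, its lists hold 4 eosinophil markers and 5 basophil markers. All of these were higher in gated cells than in other cells in 12 of 12 dogs. Of these, C30H15orf48, SMPD1, DAPK2, HK2 and PRR5L took no part in the gate or the classes. C30H15orf48, a mitochondrial protein gene induced in inflammation, was at 2504 ± 514 CPM (SD, n = 12) in gated cells and 1100 in neutrophils. SMPD1 was at 466.5 ± 108 CPM, against 18.3 in neutrophils. DAPK2 was at 189 ± 50.6 CPM against 2.27 in all other cells, HK2 at 130 ± 30.6 against 5.20 and PRR5L at 452 ± 105 against 22.5. The study chose these lists on cells of the same dogs, so their levels are not independent evidence of cell identity.

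Of 20 canonical eosinophil genes, 14 were measured under these names, 4 reached 50 CPM and those 4 were higher in gated cells in 12 of 12 dogs. CCR3 was at 112 ± 37.3 CPM in gated cells, from 53.2 in healthy dog 4 to 191 in OS dog 4, and at 0.924 CPM in other cells. A UMI of CCR3 was present in 19.1% of gated cells, 0.0628% of T cells and 0.276% of neutrophils. ADGRE1, the EMR1 receptor of human eosinophils, was at 222 ± 81.6 CPM, close to the 166 of neutrophils. CEBPE, a factor of late granulocyte differentiation, was at 90.4 ± 34.9 CPM in gated cells, 10.7 in neutrophils and 110 in PMN-MDSC cells. VSTM1 was lower in gated cells (115 ± 57.9 CPM) than in neutrophils (261). Lower levels were measured for ALOX15, the 15-lipoxygenase (36.7 ± 27.7 CPM), P2RY14 (19.6 ± 18.6) and the histamine receptor HRH4 (19.9 ± 11.1), against 5.50, 0.773 and 0.453 CPM in other cells. EPX, PRG3, SMPD3, THBS4 and PRSS33 had 0 UMIs among the 3042373 UMIs of the gated cells, which allows up to 0.986 CPM, and up to 0.226% of gated cells with a UMI. These limits cover counting error only and pool the cells of 17 dogs, which are not independent replicates. EPX encodes eosinophil peroxidase and PRG3 a homolog of major basic protein. The other 6 genes of the list were not analysed here, PRG2 and the eosinophil ribonucleases among them.

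The receptors for IL-3, IL-5 and GM-CSF have alpha chains of their own and share a common chain. IL5RA, the IL-5 alpha chain, is a gate gene, so its level was set by the rule. CSF2RB, the common beta chain, was at 519 ± 153 CPM in gated cells, 226 in neutrophils and 49.3 in all other cells. CSF2RA, the GM-CSF receptor alpha chain, was lower in gated cells (139 ± 109 CPM) than in neutrophils (544), and IL3RA, the IL-3 receptor alpha chain, had a mean of 31.0 CPM with a highest value of 187. Of its 55 UMIs in the gate, 42 lay in 10 cells with CPA3 described below, and the other 1318 gated cells held 13 (4.34 CPM). IL13RA1, a chain of the IL-13 receptor, was at 261 ± 102 CPM against 407 in neutrophils, and IL4R at 61.4 ± 44.0 against 74.7. IL1RL1, the IL-33 receptor, was at 23.4 ± 21.3 CPM, higher than in other cells in 8 dogs. Of 14 measured receptors of this list, 10 reached 50 CPM, 3 were higher in gated cells in every dog and 0 were lower, with a median log2 ratio of 0.61. Downstream, JAK2, the kinase bound to the common beta chain, was at 1318 ± 296 CPM in gated cells, 612 in neutrophils and 376 in all other cells. JAK1 differed little (673 ± 131 against 709 CPM). STAT6, the transcription factor of IL-4 and IL-13 signals, was low (36.1 ± 14.1 CPM) but higher than in other cells in 12 dogs, and CISH, a feedback inhibitor of STAT5, had 0 UMIs. Of 13 measured JAK-STAT genes, 5 reached 50 CPM and 1 was higher in every dog.

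In the list of eicosanoid genes, ALOX5 was at 610 ± 183 CPM (329 in neutrophils) and its activating protein ALOX5AP at 790 ± 118 CPM (330 in neutrophils and 558 in PMN-MDSC cells). PLA2G4A, the phospholipase that releases arachidonic acid, was at 275 ± 97.9 CPM, against 97.5 in neutrophils. LTA4H, which makes leukotriene B4, was at 191 ± 72.9 CPM, against 77.4 in neutrophils. LTC4S, which makes the cysteinyl leukotriene C4, had 0 UMIs in gated cells and was at 0.0422 CPM in all other cells. PTGS2, the inducible cyclooxygenase, was lower in gated cells (1.25 CPM) than in others (20.1) in 12 of 12 dogs, and PTGDR2, the prostaglandin D2 receptor known as CRTH2, had 1 UMI. In this list of 18 genes, 7 reached 50 CPM, of which 4 were higher and 1 lower in every dog.

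Among 15 measured chemokine and chemoattractant receptors, 6 reached 50 CPM and 3 were higher in gated cells in every dog. These were CCR3, CXCR4, the receptor for CXCL12 that holds leukocytes in marrow (368 ± 181 CPM against 140), and ADORA3, the A3 adenosine receptor (111 ± 32.7 against 1.79). S1PR1, a receptor for leukocyte egress, was at 226 ± 96.2 CPM and higher in 11 dogs. C5AR1, the C5a receptor, was lower than in neutrophils (311 against 1011 CPM), and CCR2, CCR4, CXCR3 and S1PR4 had 0 UMIs. Adhesion molecules showed a mixed picture, with 5 of the 10 that reached 50 CPM higher and 2 lower in every dog. ITGA4, the alpha chain of VLA-4, was at 899 ± 321 CPM in gated cells and 126 in neutrophils, and ITGAM, the alpha chain of Mac-1, at 794 ± 153 and 626. ITGB1, the beta partner of ITGA4 in VLA-4, was lower than in other cells (51.3 against 235 CPM) in 12 of 12 dogs. Of 7 Fc receptor and signalling genes at 50 CPM, 2 were higher in every dog, the kinases SYK (461 ± 117 CPM, against 1354 in neutrophils) and BTK (144 ± 35.6, against 41.8).

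Of 20 measured myeloid transcription factors, 10 reached 50 CPM, 7 were higher in gated cells in every dog and 1 was lower. GATA1, which directs eosinophil and basophil development, was at 101 ± 34.3 CPM (46.8 to 165), against 0.228 in neutrophils and 1.44 in all other cells. GFI1B, a repressor related to GFI1, was at 136 ± 47.0 CPM, close to the 118 of neutrophils. SPI1 encodes PU.1 and was at 555 ± 111 CPM, and IKZF2, which encodes Helios, at 459.5 ± 116. BACH2, a repressor prominent in B and T cells, was lower in every dog (57.9 against 640 CPM). The growth factor and cytokine list was mostly near 0 in gated cells, and 3 of its 10 genes at 50 CPM were higher and 4 lower in every dog. Besides TGFA, the higher ones were TGFB1 (306 ± 62.9 CPM against 120) and IL16 (263 ± 61.0 against 149). TNF, IL6, IL10 and AREG had 0 UMIs, and CCL5 was lower (12.9 against 548 CPM).

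Survival genes were uneven, with 3 of 9 at 50 CPM higher and 1 lower in every dog. BCL2 was low in gated cells (21.2 CPM against 573), MCL1, its short-lived relative, was higher (305.5 ± 68.7 against 126), and so were the kinases DAPK1 (246.5 ± 76.4 against 34.2) and DAPK2. Of 10 glycolysis and hypoxia genes at 50 CPM, 4 were higher and 1 lower in every dog. Higher were HK2, PFKFB3, a regulator of glycolytic flux (225 ± 53.0 against 80.0), the glucose transporter SLC2A3 (317 ± 149 against 155) and HIF1A (444 ± 92.2 against 178), while ENO1, an enolase, was lower (185 against 319). CA13, another carbonic anhydrase, was at 118 ± 41.4 CPM against 21.6, and PADI2 was at 181 ± 67.2 against 22.1, near the 224 of neutrophils. Interferon response genes were at a summed 135 to 686.6 CPM in 11 dogs and 2394 in healthy dog 7, whose other cells were also highest at 1652. In this list 1 of 6 genes at 50 CPM was higher and 1 lower in every dog.

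By the naming rule, which took the highest median ratios among genes outside the gate and classes, the gated cells were led by SDR16C5, a retinol dehydrogenase (217 ± 86.3 against 2.07 CPM, median log2 ratio 6.10), DAPK2 (6.02) and ADGRE2, an adhesion receptor of myeloid cells (1209 ± 175 against 21.2, 6.002). CCR3 (5.91), SMPD1 (5.83) and GATA1 (5.56) came next. SLCO4C1, an organic anion transporter, was at 1244 ± 442 CPM against 29.5 (5.47), with its highest value in healthy dog 2 (2482 CPM), where the remaining 11 dogs ranged from 775.5 to 1545. RAB44, a Rab protein of granulocytes and mast cells (5.46), ADORA3 (5.34), B4GALNT1 (5.28), FCRL2 (5.21), UACA (5.20), APBB1 (5.08), PON2 (5.03) and SLC22A23 (4.96) completed the list. The lowest included genes of T cells. IL7R, the interleukin-7 receptor, stood at 3.09 against 481 CPM (−8.82), followed by CAMK4 (−7.65), CD3G (−7.24), RORA (−7.19), LEF1 (−7.18), THEMIS (−7.14), MDFIC (−7.11), BCL11B (−7.01), CD2 (−6.94) and TRIM22 (−6.84).

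Markers of other cell types were measured beside these levels. All 7 T cell markers were lower in gated than in other cells in every dog, with summed levels of 0 to 142 CPM in gated cells and 914 to 2285 in others. Monocyte markers were lower for 6 of 8 genes, and 1 was higher: VCAN, a proteoglycan gene, at 2689 ± 578 CPM against 1987 in monocytes and 1809 in neutrophils. Of 8 neutrophil markers, 1 was higher and 0 were lower in every dog. Their summed level in gated cells ranged from 705 CPM in healthy dog 2 to 26420 in healthy dog 7, with 6335 the next highest, while the other cells of the same dogs held 2442 to 12540 CPM. Platelet markers summed to 0 to 640 CPM in gated cells.

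A set of 38 gated cells from 10 dogs also met the neutrophil definition by at least 3 of its 5 genes. Healthy dog 7 held 15 of them, 36.6% of its gated cells, OS dog 7 held 6 and OS dog 1 held 4. By class, 27 had PADI3 or TGM2 only, 10 had both pairs and 1 had neither. TGM2 was detected in 0% of these 38 cells and in 51.4% of the other 1290. CA8 was detected in 21.1 and 74.7%, SMPD1 in 13.2 and 56.2% and CCR3 in 7.89 and 19.4% of these sets. IL5RA (89.5 and 82.7%) and PADI3 (97.4 and 87.1%) were found in most cells of both. Median depth was similar, 2242.5 and 2040 UMIs. Without these cells the summed neutrophil markers of healthy dog 7 were 1790 CPM in the gate.

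The basophil label was checked with canonical genes. Of 16 such genes, 13 were measured, 2 reached 50 CPM and 0 were higher in every dog. FCER1A was at 58.6 ± 56.9 CPM in gated cells (highest 155) and 8.60 in others. MS4A2, the beta chain of the IgE receptor, had a median of 0 in gated cells and a mean of 44.8 CPM, below the 76.7 of monocytes. CPA3 had a median of 0, a mean of 90.6 and a highest value of 704 CPM in OS dog 4. HDC and IL4 had 1 UMI each and HPGDS and IL13 had 0. KIT, the receptor of mast cells, had 2 UMIs.

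At least 2 of 6 canonical genes (FCER1A, MS4A2, HDC, CPA3, GATA2 and ENPP3) were found in 482 kept barcodes, of which 10 were in the gate. With at least 3 of the 6 there were 85 barcodes, 10 of them in the gate. A narrower set, chosen after seeing the data, took CPA3 with MS4A2 or GATA2 and at most 3 DLA-DRA UMIs. It held 45 cells from 9 dogs, with 16 in healthy dog 5, 13 in OS dog 4 and 1 to 4 in each of the others. Again 10 were in the gate, and all 10 had DACH1 and CA8 without IL5RA. In these 45 cells the genes apart from the definition included HPGD, a prostaglandin dehydrogenase (43 cells), the metalloproteinases MMP9 (40) and MMP1 (40), CSF2RB (39), IL3RA (37) and FCER1A (36, or 80.0%). Of the genes that the study lists for basophils, DACH1 was in 24 of the 45 cells, CA8 in 20, HK2 in 12, ANKRD33B in 9, TGFA in 4, PRR5L in 2, and DAPK2 and IL5RA in 0. CCR3 was in 1 and GATA1 in 4.

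Of the other 1318 gated cells, 83 (6.30%) had FCER1A, against 0.144% of T cells, 12 had ENPP3, 2 had MS4A2, 1 had GATA2, 1 had HDC and none had CPA3 or MMP1. CCR3 was in 252 (19.1%), DAPK2 in 399 (30.3%), ALOX5 in 798 (60.5%) and PRR5L in 790 (59.9%). HK2 was in 26.7% of the 45 cells and 23.2% of the 1318, and SMPD1 in 62.2 and 54.9%. Median depth was 3608 UMIs in the 45 cells and 2037 in the 1318, and its part in these frequencies was not tested. In T cells, which should lack both genes, MS4A2 was seen in 0.605% and CPA3 in 0.0838%. MS4A2 was also seen in 31.6% of monocytes, 1.006% of B cells and 10.2% of PMN-MDSC cells, where CPA3 was in 0.103, 0.107 and 0%. How many of the 482 and 85 barcodes were cells of these types was not tested. The gate thus held few of the cells with canonical basophil genes, 10 of 45, and these were 10 of its own 1328.

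**Figure D4:**
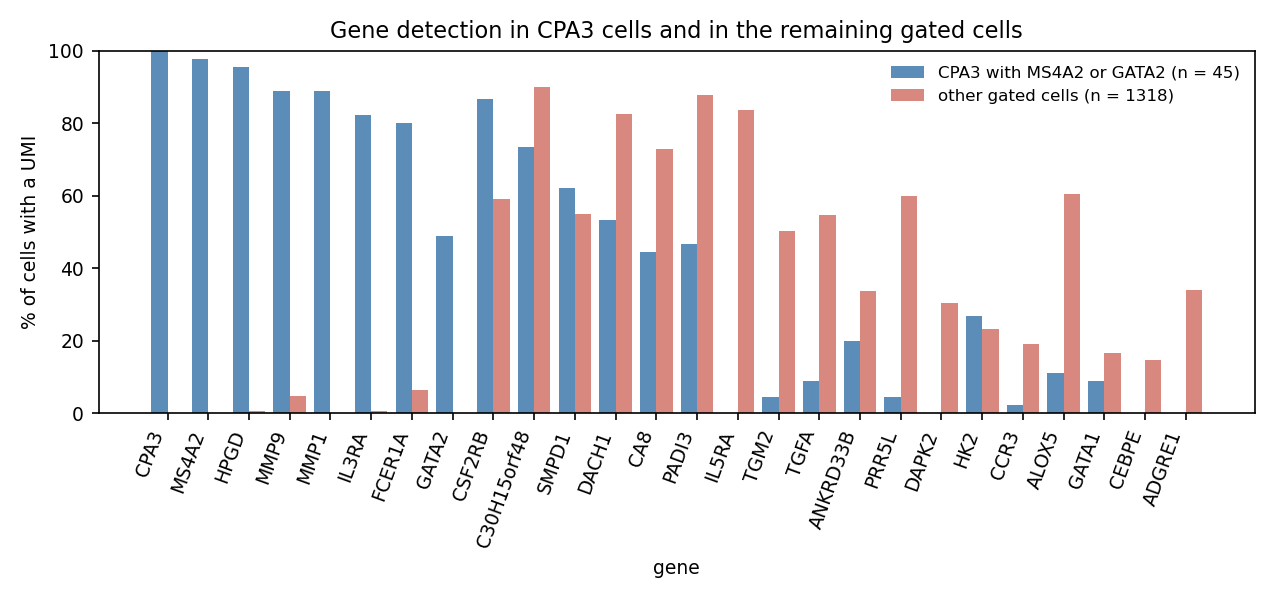
Percentage of cells with at least 1 UMI of each gene in the 45 cells with CPA3 and MS4A2 or GATA2 (10 of them in the gate) and in the other 1318 gated cells. CPA3 and MS4A2 helped choose the 45 cells, and FCER1A, MMP1 and HPGD are frequent in them. IL5RA is frequent in the other gated cells, which it helped choose. DAPK2, ALOX5, PRR5L and CCR3 are more frequent in the other gated cells than in the 45 cells.

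Gene expression of gated cells was then compared between OS and healthy dogs, the question being whether OS alters the transcriptome of circulating leukocytes. UMIs were summed per dog for 5 healthy and 7 OS dogs with at least 25 gated cells, holding 51848 to 1025291 UMIs each. With edgeR's quasi-likelihood test, 0 of 8286 genes (0%) passed an adjusted p of 0.01 with an absolute log2 fold change over 0.58. An unadjusted p under 0.05 was reached by 537 genes, 262 higher and 275 lower in OS dogs, the lowest adjusted p was 0.0792 and the median log2 fold change was 0.03. DESeq2 also called 0 genes, with 346 at an unadjusted p under 0.05. Without healthy dog 5 or without healthy dog 7, edgeR called 2 genes. The TMM-scaled CPM of the 2 groups did not overlap for 13 genes higher (0.157%) and 6 genes lower (0.0724%) in OS dogs.

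None of the genes that define or lead the gated cells passed the test. PADI3 (log2 fold change 0.14), TGM2 (−0.25), TGFA (0.03), GATA1 (0.05), CSF2RB (−0.09) and JAK2 (−0.13) were all close to 0. IL5RA had a log2 fold change of 0.56 (edgeR, unadjusted p = 0.0352), but the gate selects on it. CCR3 had a mean of 85.6 CPM in healthy and 131 in OS dogs, a log2 fold change of 0.57 ± 0.31 (SE, adjusted p = 0.793). ALOX5 was at 0.45 (unadjusted p = 0.073). No gene of any fixed list was called.

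ITGA4 was at 525, 587, 691, 642 and 611 CPM in healthy dogs 1, 2, 4, 5 and 7 and at 971, 1181, 1526, 690.6, 1021, 1262 and 1080 CPM in OS dogs 1, 4, 5, 6, 7, 9 and 10. The groups met at healthy dog 4 and OS dog 6, and did not overlap after TMM scaling. Its log2 fold change was 0.84 ± 0.23 (SE, edgeR unadjusted p = 0.000818, adjusted p = 0.399). LTA4H was between 106 and 150 CPM in the healthy and between 174 and 345 CPM in the OS dogs, without overlap, with a log2 fold change of 0.83 ± 0.27 (adjusted p = 0.535). In the other cells of these dogs it was between 63.2 and 84.7 CPM in healthy and between 81.8 and 99.2 in OS dogs. Neither gene passed the threshold. Other listed genes at a similar or lower unadjusted p included FN1, the cytokine gene IL1B and F13A1, all higher in OS dogs. Their log2 fold changes by the same edgeR test were 4.50 ± 1.15 (unadjusted p = 0.000495), 4.51 ± 1.25 (p = 0.00108) and 3.68 ± 1.11 (p = 0.00239). They came from 80, 64 and 27 UMIs in all 12 dogs, with adjusted p of 0.342, 0.416 and 0.458. Much of this came from single dogs. In cells with PADI3 or TGM2 only, 60 UMIs of FN1 were found, all in a single OS dog (891 TMM-scaled CPM). IL1B had 31 UMIs in these cells, and was at 0, 44.5 and 558 TMM-scaled CPM in the 3 OS dogs with enough of them. OSM was lower in OS dogs (−2.40 ± 0.76, edgeR unadjusted p = 0.00363, adjusted p = 0.535), from 35 UMIs. The B cell marker CD79A was higher (0.83 ± 0.26, edgeR unadjusted p = 0.00372, adjusted p = 0.535), from 738 UMIs.

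Markers of other cell types were set beside this comparison. Of 8 monocyte markers, FN1 and F13A1 among them, 6 had a positive and 2 a negative log2 fold change (median 0.93), and their summed level was 3615 to 5411 CPM in healthy and 2780 to 6215 CPM in OS dogs. Of 8 neutrophil markers, 1 was positive and 7 negative (median −1.03), with summed levels of 705 to 26420 CPM in healthy and 1428 to 6335 CPM in OS dogs. Of 3 tested T cell markers, 0 were positive and 3 negative (median −2.08). Of 4 tested platelet markers, 4 were positive and 0 negative (median 1.46). Of 3 tested B cell markers, 2 were positive and 1 negative (median 0.54). The median over all 8286 genes was 0.03. No marker was called, and the part of these cells in the comparison was not tested.

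By the naming rule, which with 0 calls took the 3 genes in each direction with the lowest unadjusted p, STARD10 and NDUFB11 were among those higher in OS dogs without a call. STARD10, a lipid transfer protein, was at 45.02, 10.7, 35.4, 48.8 and 36.6 CPM in the healthy and 69.7, 23.9, 172, 95.6, 79.1, 191 and 347 CPM in the OS dogs. Only OS dog 4 lay within the healthy range, and the log2 fold change was 2.08 ± 0.51 (adjusted p = 0.285). NDUFB11, a subunit of respiratory complex I, was at 16.8 ± 14.5 and 72.2 ± 30.0 TMM-scaled CPM (1.97 ± 0.48), and its groups did not overlap. Its adjusted p was also 0.285.

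Lower in OS dogs without a call were TIPARP, CSF1 and CCNH. TIPARP, an ADP-ribosyltransferase induced by the aryl hydrocarbon receptor, was at 750, 3260, 301, 406 and 208 CPM in the healthy and 295, 179, 172, 255, 212, 154 and 251 CPM in the OS dogs. Healthy dog 2 decided its mean, the lowest healthy dog lay within the OS range, and the log2 fold change was −2.33 ± 0.45 (adjusted p = 0.0792). In the other cells of healthy dog 2 TIPARP was also high, at 447 CPM. Dogs with too few gated cells for the test were not all on the same side. TIPARP was at 323 and 203 CPM in healthy dogs 3 and 6. It was at 190, 1678 and 75.8 CPM in OS dogs 2, 3 and 8. OS dog 3 had 3 gated cells with 14 UMIs of TIPARP, and its other cells were at 253 CPM. CCNH, a cyclin of the CDK-activating kinase, was at 195, 132, 124, 179 and 586 CPM in healthy and 107, 35.8, 36.9, 58.4, 80.4, 66.1 and 57.9 CPM in OS dogs, without overlap (−1.77 ± 0.37, adjusted p = 0.0957). Healthy dog 7 was also highest for CCNH in its other cells, at 385 CPM. Of the 48 UMIs in its gated cells, 45 lay in cells with PADI3 or TGM2 only. CSF1, which encodes macrophage colony-stimulating factor, had 0 UMIs in 2 of 5 healthy and 5 of 7 OS dogs (−4.48 ± 0.88, adjusted p = 0.0792). Of its 98 UMIs, 90 came from healthy dog 2, whose other cells were also highest (87.4 CPM), and without this dog the gene was below the minimum of 10 counts. S100A12 ranged from 0 to 8123 CPM in healthy dogs and from 0 to 912 in OS dogs, its highest value being that of healthy dog 7.

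**Figure D5:**
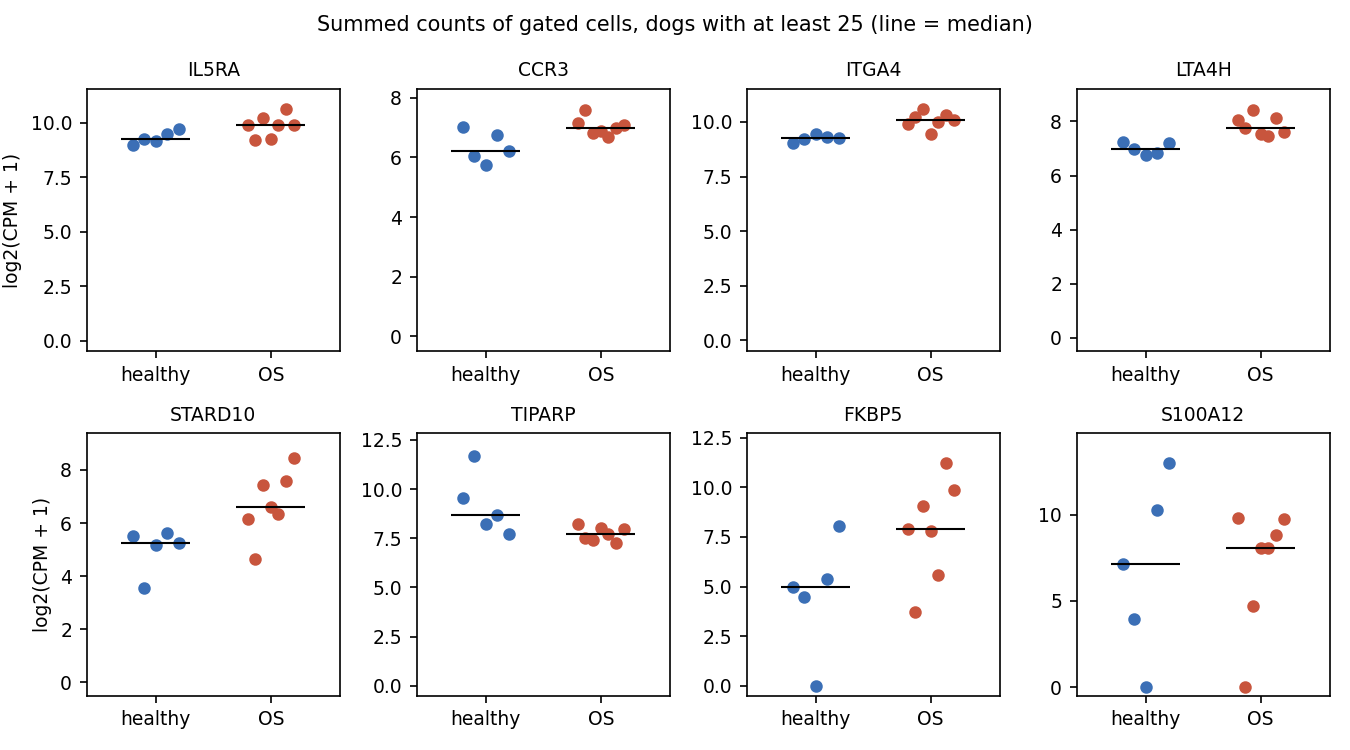
Summed counts of gated cells as log2(CPM + 1) for 8 genes, with 1 point per dog (5 healthy, 7 OS) and a line at the median. LTA4H separates the groups, ITGA4 and STARD10 nearly do, TIPARP is highest in healthy dog 2, and S100A12 spreads from 0 to 8123 CPM; no gene passed the test.

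Cells with PADI3 or TGM2 only could be compared in 2 healthy and 3 OS dogs with at least 25 of them. Of 5396 genes, 0 passed (0%), 296 had an unadjusted p under 0.05 (152 higher, 144 lower), and the lowest adjusted p was 0.243. DESeq2 called 0 genes, with 106 at an unadjusted p under 0.05. The count of edgeR rose to 23 without healthy dog 5, to 6 without healthy dog 2 and to 5 without OS dog 6. With so few dogs, 546 genes (10.1%) were higher and 554 (10.3%) lower in OS dogs without overlap. The named genes were SHKBP1 and LPP, with 0 UMIs in these cells of healthy dogs 2 and 5, and FKBP5, a glucocorticoid-induced chaperone (log2 fold change 4.75 ± 1.21, adjusted p = 0.514). In the other 5 healthy dogs, which had too few of these cells to enter the test, SHKBP1 was at 70.4 to 579 CPM. LPP was at 35.2 CPM in healthy dog 1 and had 0 UMIs in these cells of healthy dogs 3, 4, 6 and 7. FKBP5 was highest among the tested dogs in OS dog 9, at 2554 CPM in these cells and 973 CPM in its other cells. OS dog 3, with 1 such cell, was at 6554 and 1360 CPM. TIPARP (−3.30 ± 0.67), MMP1 (−10.36 ± 1.95, adjusted p = 0.243) and ABLIM1 (−8.49 ± 1.84) were lower. All 200 UMIs of MMP1 and all 57 of ABLIM1 in these 5 dogs came from healthy dog 5. The gate of healthy dog 5 held 4 of the cells with CPA3. Of the 576 UMIs of TIPARP in these 5 dogs, 492 came from healthy dog 2.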

How the data were processed

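Leukocytes of 7 healthy and 10 OS dogs were profiled by droplet-based 3′ single-cell RNA sequencing, 1 library per dog. The deposited values were raw UMI counts per gene and barcode, with no normalization by the authors. The submitters' processing notes name Cell Ranger 7.0.0 and CanFam3.1. The study ran the alignment both ways for intronic reads, and the sources used here do not say which run was deposited. Raw reads, sequences and some listed symbols were not analysed here.

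Barcodes were kept and gated as stated in the report. The members and gene lists were chosen with earlier results of these data known. Populations set beside the gate were T cells (at least 2 of CD3E, CD3D and CD3G, no MS4A1), B cells (at least 2 of MS4A1, CD79B, PAX5 and BANK1, no CD3E), monocytes (at least 2 of LYZ, F13A1, FN1 and BPI, DLA-DRA above 3), neutrophils and PMN-MDSC cells. CD79A was left out of the B cell definition after seeing the data, because T cells held many of its UMIs. Doublets were kept in the main values. Scrublet as called from scanpy, at 0.8% per 1000 barcodes, scored 13 gated cells as doublets, which were removed in an alternative.

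Shares were compared with exact two-sided Wilcoxon rank-sum tests, adjusted by Benjamini-Hochberg over 6 shares. Counts summed per dog (at least 25 cells, genes with at least 10 counts) entered edgeR's quasi-likelihood test with TMM scaling. Genes were called at an adjusted p under 0.01 and an absolute log2 fold change over 0.58. All adjusted p-values of genes are Benjamini-Hochberg values over all genes tested. The dog was the replicate, so p-values measure the spread between dogs. Detection shares and their exact (Clopper-Pearson) intervals cover counting error only.

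Named genes were the gate and class genes, the 15 highest and 10 lowest by median log2 ratio of gated to other cells among genes at 50 CPM with 1 direction in every dog, the corresponding 10 in each direction between classes, of which examples are given, and the 3 in each direction with the lowest unadjusted p between OS and healthy dogs at 10 CPM or more, since none was called. ITGA4, LTA4H, FN1, IL1B, F13A1, OSM, CD79A and S100A12 come from the fixed lists and were singled out after their values were seen. Some results that these rules name are not reported here.

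Alternatives were other gates, a thinning to 1000 UMIs, doublets removed, other filters, denominators, tests, normalizations and pseudocounts, DESeq2, age as a covariate, a replicate block and omission of single dogs. Leaving out both dogs with the most gated cells, or gated cells with neutrophil or CPA3 genes, was chosen after seeing the data. Procedures were tested on simulated data. Tools were Python 3.11.15 with scipy 1.17.1 and scanpy 1.11.5, and edgeR 4.0.16, DESeq2 1.42.0 and limma 3.58.1 in R 4.3.3.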

Additional observations from a re-analysis of the deposited data

Results flagged for a closer look

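In groups of 4 to 10 dogs, 40 sets of values were examined for a dog far from the others by Dixon's criterion, and 12 stood out. For normally distributed values, chance flags about 1 in 20 groups. Shares and CPM were used without transformation, and their skew was not allowed for. Each next value is that of the same disease group. The values share dogs and cells and are not independent.

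Most concerned the 2 dogs with the most gated cells. The gated share was 9.63% in healthy dog 2, against 1.72% in the next healthy dog, and 6.15% in OS dog 7, against 1.90% in the next OS dog. Cells with class genes of both pairs made up 7.49% of barcodes in healthy dog 2 (next 0.641%) and 4.07% in OS dog 7 (next 0.959%). Cells with PADI3 or TGM2 only were 1.73% in OS dog 7 (next 0.748%), and those with TGFA or ANKRD33B only were 0.362% in healthy dog 2 (next 0.0734%).

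In OS dog 1, TGFA or ANKRD33B only accounted for 53.3% of its 15 cells with genes of a single pair, against 18.2% in the next of the 7 OS dogs with at least 10 such cells. PADI3 in this dog was at 750.9 CPM, the lowest, against 1432 CPM in the next of the 7 OS dogs with at least 25 gated cells. In healthy dog 7, 36.6% of gated cells carried neutrophil genes (next 4.17%) and CCNH was at 586 CPM (next 195 CPM). TIPARP in healthy dog 2 was at 3260 CPM (next 750.3 CPM). CSF1 in OS dog 1 was at 5.36 CPM (next 1.28 CPM), from few UMIs.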

How the results depend on the processing

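None of the 156 alternative tests of the shares of gated cells and classes had a p under 0.05 (lowest 0.25), and a p that misses the threshold does not show that the groups were alike. With means in place of ranks, OS dogs were lower in gated cells (exact permutation p = 0.672), TGFA or ANKRD33B only (p = 0.809), both pairs (p = 0.706) and neither (p = 0.971), and higher in the percentage of TGFA or ANKRD33B only among single-pair cells (p = 0.720). Reversed directions also came with all 3 gate genes (TGFA or ANKRD33B only, exact p = 0.658, neither, p = 0.959, percentage of single-pair cells, p = 0.667), after thinning to 1000 UMIs (PADI3 or TGM2 only, exact p = 0.962, percentage, p = 0.968), without the DLA-DRA limit (percentage, exact p = 0.945) and without healthy dog 2 and OS dog 7 (percentage, exact p = 0.914). With each dog left out in turn, exact p was 0.492 to 1 for gated cells, 0.299 to 0.793 for PADI3 or TGM2 only, 0.542 to 0.974 for TGFA or ANKRD33B only, 0.313 to 1 for both pairs, 0.311 to 0.983 for neither, 0.494 to 1 for the percentage and 0.181 to 0.713 for depth. Some of these omissions also reversed the direction. This held for the share of gated cells, for TGFA or ANKRD33B only and for the percentage.

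Pairing dogs by replicate number rests on names only, and deviations of same-numbered dogs correlated at 0.14, 0.18, −0.11 and −0.17. A replicate block gave exact p = 0.859 for gated cells, 1 for TGFA or ANKRD33B only, 0.953 for both pairs, 0.719 for neither and 0.25 for the percentage, all reversed, and 0.0156 for depth, higher in OS dogs. With the block, 14 genes were called in all gated cells.

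In all gated cells, 1 gene was called with no filter on low counts, 1 without cells with neutrophil genes and 32 with all 3 gate genes, where 1 healthy and 2 OS dogs were left. With dogs left out in turn, 0 to 2 genes were called, 2 without healthy dog 5 or healthy dog 7. In cells with PADI3 or TGM2 only, the count was 11 with no filter, 1 at a minimum of 10 cells, 3 with age as a covariate, 8 without healthy dog 2 and OS dog 7, 4 without cells with neutrophil genes, and 0 to 23 with dogs left out in turn (23 without healthy dog 5, 6 without healthy dog 2, 5 without OS dog 6). Where 1 dog of a group was left, it is assumed to vary like the others. With the age covariate the log2 fold changes of MMP1 and ABLIM1 reversed to 14.14 and 11.47. The cause of these changes was not tested. Genes over 2-fold higher or lower in gated cells in every dog numbered 543 and 725 with all 3 gate genes, which left 3 dogs, and 339 to 368 and 350 to 381 with dogs left out in turn. The 482 barcodes with canonical basophil genes became 85 with at least 3 of the 6 and 45 by the narrower set.

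Not run for want of cells were the tests and class split of TGFA or ANKRD33B only at 25 cells, and, for PADI3 or TGM2 only, the fits with all 3 gate genes and with the block. The gated cells had few UMIs, so a gene at 10 CPM rests on few molecules in most dogs, and lack of a call does not show equal expression. The part of breed and of granulocyte yield from the gradient in these comparisons was not tested.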
